A study of Saccharomyces cerevisiae with 11 samples.

Results

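The 33 genes described here encode subunits of the 26S proteasome of budding yeast and the transcription factor that drives its synthesis. They were taken by their ORF identifiers from all 11 count tables, with no use of measured values, and are 33 of the 6668 genes counted. There were 14 genes of the 20S core (7 of the alpha ring and 7 of the beta ring), 18 genes of the 19S particle (9 of its base, 8 of its lid, and RPN10, which sits between base and lid) and RPN4 (YDL020C). SEM1, a further small subunit of the lid, is not among the 33 and was placed with the assembly and accessory genes. RNA-Seq and ribosome profiling were carried out on wild-type cells of the diploid laboratory strain BY4743 at 3 replicative ages, in 6 RNA-Seq and 5 footprint libraries. All groups were grown in SD medium at 25 °C from cells whose surface had been biotinylated. Young cells (2 RNA-Seq and 2 footprint libraries) were the daughters that did not bind streptavidin beads after 13 h of batch culture. Middle cells (2 and 2 libraries) were the bead-bound mothers of such a culture. Aged cells (2 RNA-Seq libraries and 1 footprint library) were bead-bound mothers kept for another 24 h in a MAD vessel, a small chemostat in which a magnet holds the mothers and the flow removes daughters. Young cells were thus unbound daughters while Middle and Aged cells carried beads, and Aged cells alone had passed through the vessel, so age cannot be told apart from these steps.

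The proteasome degrades proteins that carry ubiquitin chains. The 20S core is a stack of rings in which the outer alpha rings gate the entrance and the inner beta rings hold the proteolytic sites. The 19S particle caps this barrel. Its base contains a ring of RPT ATPases that unfold substrates, and its lid contains RPN11, which removes the ubiquitin chain. Rpn4 binds a short element in the promoters of proteasome genes, called PACE, and is itself a short-lived substrate of the proteasome, so that the factor accumulates when degradation is slow. Proteasome abundance is a known determinant of replicative lifespan in yeast.

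RNA-Seq libraries held 476704 to 2585717 counts and footprint libraries held 168247 to 965156 counts. The 33 genes took 0.899 to 1.28% of the counts of a library, and the fewest counts for any of them were 17, for PRE6 in the footprints of Middle replicate 1. Levels are given as CPM, counts scaled to library size within each assay by TMM, a factor that takes most genes as unchanged. LEU2 and URA3 are deleted in the stated BY4743 genotype, yet LEU2 had 9 to 142 counts and URA3 17 to 412 counts in every library, and this difference from the genotype was not resolved. Of 9 markers of daughter cells, which a mother fraction can also hold, the summed level in RNA was 1133 and 507 CPM in the Young replicates, 1216 and 685.5 CPM in those of Middle cells, and 1609 and 1579 CPM in those of Aged cells, with none of the 9 at 0. In footprints the Young libraries had 1031 and 472.7 CPM, the Middle libraries 807.9 and 560 CPM, and the Aged library 1609 CPM, with AMN1 at 0 in 3 of the libraries (Young replicate 1 and both Middle replicates) and DSE2 at 0 in Middle replicate 1. Their sum was thus highest in Aged cells in both assays. Of the 9, 3 (AMN1, DSE1, CTS1) were called higher in Aged against Young RNA, against 8.02% of all genes. In Aged against Middle RNA 2 (AMN1, DSE4) were called higher, against 4.76% of all genes. ASH1 was instead the lowest of the 9, with log2 fold changes of −0.14 and −0.61 there and −1.15 in Aged against Young footprints. The sum was not highest in Young cells, the daughters themselves, so it cannot be read as a share of daughters. The part of these markers in the results was not tested. The methods call the Young and the Middle samples biological replicates but do not state separate cultures, so p-values measure only the spread between these libraries, which may be technical, and fewer cells of a kind cannot be told apart from less RNA per cell.

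The PACE element was searched as GGTGGCAAA on both strands of the 300 bases before each start codon in the RefSeq copy of the R64 genome, the build the authors aligned to. It occurred in 27 of the 33 windows (81.8%), against 73 of the 6007 windows of all genes (1.22%). Those 27 were 12 of the core genes and 15 of the 19S genes. With the first G left out (GTGGCAAA, a stretch inside the full element), 30 of the 33 windows (90.9%) held it, against 159 of all windows (2.65%), the additional members being PRE5, PUP1 and RPN8. No match to either was present in the windows of RPN13, RPN10 and RPN4 itself. The windows below are shown because they belong to the 3 members with the smallest p in Aged RNA (RPN12, RPN8, PRE4) and to the 3 subunits with proteolytic sites (PRE3, PUP1, PRE2), with RPT1 for the base. Each is written 5′ to 3′ on the strand of its gene, with the element in capitals, so that TTTGCCACC marks an element on the opposite strand.
RPN12: ctacacattaTTTGCCACCcattgaaattg
RPN8: ggatacctcaGTGGCAAAtcgttactcaa
PRE4: tggtttagaaTTTGCCACCttaaatacgta
PRE3: aacggaatccGGTGGCAAAaaagggaaaag
PUP1: acccggccgaGTGGCAAAataccaaaaag
PRE2: acagcaaaagGGTGGCAAAacgaagaatag
RPT1: attaccgaatTTTGCCACCcgaaaactaaa
These windows lie at chrVI:252398-252427 on the plus strand for RPN12 and at chrXV:817084-817112 on the minus strand for RPN8. That of PRE4 lies at chrVI:249958-249987 on the minus strand, that of PRE3 at chrX:435035-435064 on the plus strand, and that of PUP1 at chrXV:631890-631918 on the minus strand. That of PRE2 lies at chrXVI:732184-732213 and that of RPT1 at chrXI:174048-174077, both on the plus strand. Across the 30 members with a match, the element began between 84 bases (RPT6) and 183 bases (PUP3) before the start codon. A match describes the sequence and not the occupancy of the site.

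Levels of the subunits were compared per coding length, as CPM per 1000 codons. The densities of the 32 subunits varied less than those of genes with at least 10 counts in every library, a set not matched for level. Even so, RNA density in Young replicate 2 ran from 238 (RPN12) to 1529 (RPN5) per 1000 codons. In RNA, the SD of log2 density over the 32 subunits was 0.63 and 0.50 for Young replicates 1 and 2, 0.51 and 0.46 for those of Middle cells, and 0.44 and 0.39 for those of Aged cells. In footprints the Young libraries had 0.41 and 0.32, the Middle libraries 0.63 and 0.39, and the Aged library 0.31. The SD over the 2174 genes with at least 10 counts in every library was 1.28 to 1.45 in RNA and 1.69 to 1.99 in footprints. The value of 0.63 in Middle footprints came from the shallowest library. In Young RNA the core had a lower median density (538 and 638 per 1000 codons) than the base (1009 and 909) in both replicates, with the lid between them (601 and 717). In Young footprints the core (971 and 933) was instead above the base (817 and 673) in both replicates. In Aged RNA the core medians (966 and 896) stayed below those of the base (1043 and 1011), and in the Aged footprint library the core had 1192, the lid 1112 and the base 863 per 1000 codons. Within that library, the SD of log2 density over the 14 core subunits was 0.18.

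**Figure D1:**
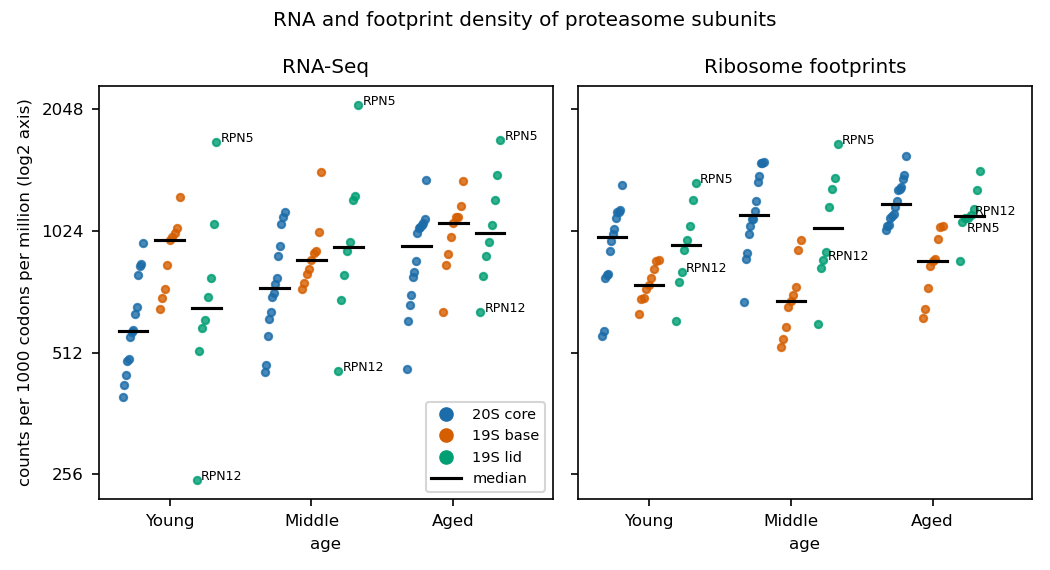
RNA (left) and footprint (right) density of proteasome subunits, as CPM per 1000 codons on a log2 axis, in Young, Middle and Aged cells. Each point is a subunit (mean of the libraries of that age, 1 library for Aged footprints), bars are medians of the 20S core, 19S base and 19S lid, and RPN10 and RPN4 are not drawn. RPN12 is the lowest point in Young RNA (248) and lies among the others in Young footprints (811).

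Both extremes of RNA density in Young cells were lid subunits. RPN5 (YDL147W), a scaffold of the lid, had the highest, with 1873 and 1529 per 1000 codons for the Young replicates, 2012 and 2186 for the Middle replicates, and 1595 and 1842 for the Aged replicates. It was the highest in every RNA-Seq library but Aged replicate 1, where RPN11 had 1606. RPN12 (YFR052W), the subunit that joins the lid last during its assembly, had the lowest RNA density in Young cells, with 257 and 238 per 1000 codons. The Middle libraries had 450 and 474 and the Aged libraries 581 and 710.2, above every Young value. Its footprint density was 763 and 858 per 1000 codons for the Young libraries, 838 and 898 for the Middle libraries, and 1119 for the Aged library. RPN12 also had the highest ratio of footprint to RNA CPM among the members in Young cells, at 2.97 and 3.60 in replicates 1 and 2. In the same replicates the ratio was 0.66 and 0.58 for RPN1 and 0.66 and 0.68 for RPN2, the large scaffolds of the base. Core subunits mostly had ratios above 1, apart from PRE6 (0.88 and 0.87) in Young replicates 1 and 2, PUP3 (0.76) and PRE10 (0.99) in Young replicate 2.

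For Aged against Young RNA, which asks how transcript levels differ late in replicative life, most subunits lay somewhat higher in Aged cells, but the test called RPN12 alone. Of the 33 members, 1 was higher at an adjusted p under 0.05 (edgeR's quasi-likelihood test with Benjamini-Hochberg adjustment over 5897 genes), against 8.02% of all genes tested, and 0 were lower, against 4.93%. With p left unadjusted, 10 members were higher at 0.05 (15.3% of all genes) and 0 were lower (12.6%). DESeq2 also called 1 higher and 0 lower. The Aged libraries lay above both Young libraries for 23 members, against 29.4% of all genes, and below both for PRE2, RPT1 and RPN4, against 28.9%. The median log2 fold change of the 32 subunits was 0.44, beside −0.02 over all genes tested. RPN12 had 154 and 188 CPM in Aged cells, against 68.2 and 63.1 CPM in Young cells. Its log2 fold change was 1.39 ± 0.32 (SE; adjusted p = 0.017), and the groups did not overlap. The call was lost in the fits without Aged replicate 2, without Young replicate 1 and without Young replicate 2. Fits that left out a library held 1 library in a group and called fewer of all genes. A lost call there thus cannot be read as particular to RPN12. Its log2 fold change stayed between 1.23 and 1.53 in the 4 fits that each left out a library.

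**Figure D2:**
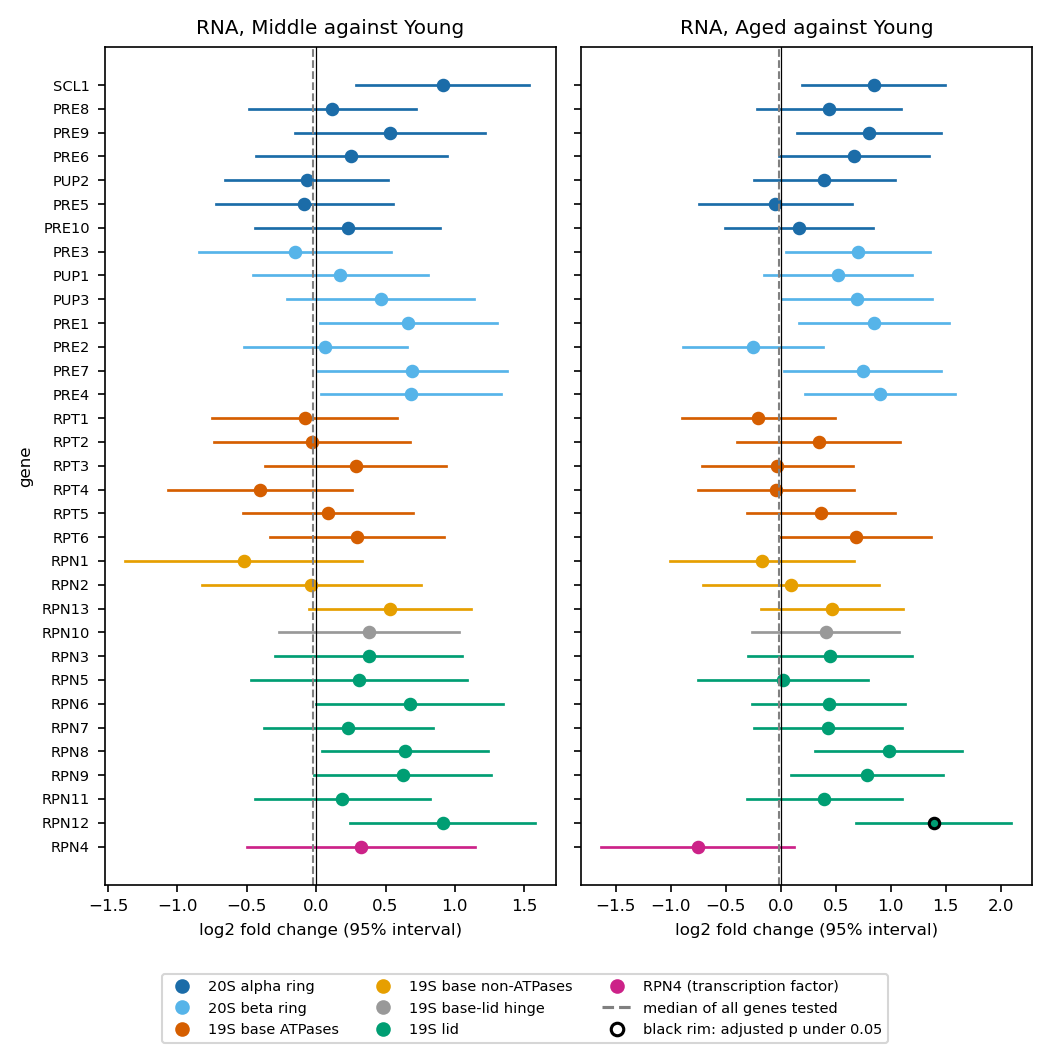
Log2 fold change of RNA for the 33 members with 95% intervals, Middle against Young (left) and Aged against Young (right), colored by sub-complex. The dashed line is the median of all genes tested (−0.02 in both panels) and a black rim marks an adjusted p under 0.05. RPN12 alone has a rim, at 1.39 in Aged cells, and RPN4 is the lowest in that panel, at −0.75.

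Of the 14 core genes, 12 had a log2 fold change above 0 in Aged RNA and none passed the adjusted threshold. Their median was 0.68, with 0.44 for the alpha ring and 0.70 for the beta ring. Of the 10 members with an unadjusted p under 0.05, 7 were core genes, namely SCL1 (YGL011C) and PRE9 (YGR135W) of the alpha ring and PRE3, PUP3 (YER094C), PRE1 (YER012W), PRE7 (YBL041W) and PRE4 of the beta ring. PRE4 (YFR050C), a beta subunit without a proteolytic site, had 293 and 270.3 CPM in Aged cells, against 124 and 175 CPM in Young cells. Its log2 fold change was 0.90 ± 0.31 (SE; adjusted p = 0.0807). The 3 beta subunits with proteolytic sites did not share a direction. PRE3 (YJL001W), with the caspase-like site, had 213 and 216 CPM in Aged cells, against 118 and 144 CPM in Young cells (log2 fold change 0.70 ± 0.30, adjusted p = 0.151). PUP1 (YOR157C), with the trypsin-like site, had 165 and 144 CPM in Aged cells, against 105 and 110.4 CPM in Young cells (0.52 ± 0.31, adjusted p = 0.302). PRE2 (YPR103W), with the chymotrypsin-like site, had 194 and 202 CPM in Aged cells, against 235 and 236 CPM in Young cells (−0.25 ± 0.29, adjusted p = 0.619). PRE3 and PUP1 thus lay above their Young values in both Aged libraries and PRE2 below them, but none of these differences passed the test. The other core gene with a value below 0 was PRE5 (YMR314W), at −0.05. The remaining alpha ring genes were PRE8 (YML092C) at 0.44, PRE6 at 0.67, PUP2 at 0.40 and PRE10 (YOR362C) at 0.16 on the log2 scale.

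Within the 19S particle the median log2 fold change of Aged against Young RNA was 0.40. The lid stood at 0.44 and all 8 of its genes among the members were above 0, of which RPN8, RPN9 (YDR427W) and RPN12 had an unadjusted p under 0.05. RPN8 (YOR261C), the partner with which RPN11 forms the deubiquitinating module, had 414 and 387 CPM in Aged cells, against 192 and 213 CPM in Young cells. Its log2 fold change was 0.98 ± 0.30 (SE; adjusted p = 0.0553). RPN11 (YFR004W) itself had 0.40 ± 0.32. The scaffold subunits RPN3, RPN6 and RPN7 (YPR108W) had 0.45, 0.43 and 0.43, and RPN5 had 0.02. The base had a median of 0.09, with 5 of its 9 genes above 0 and none past an unadjusted p under 0.05. RPT6 (YGL048C) was its highest gene at 0.68 ± 0.31 and RPT1 (YKL145W) its lowest at −0.21 ± 0.32, both ATPases of the same ring. The other ATPases had log2 fold changes of 0.35 (RPT2, YDL007W), −0.03 (RPT3), −0.04 (RPT4) and 0.37 (RPT5), and the scaffold RPN2 (YIL075C) had 0.09. The ubiquitin receptors RPN10 (YHR200W), RPN13 (YLR421C) and RPN1 (YHR027C) had 0.41 ± 0.30, 0.47 ± 0.29 and −0.17 ± 0.38. The core median exceeded that of the 19S particle by 0.28, a description of these lists that no test was made for. The 95% intervals of 8 members lay within 2-fold in both directions, and those of the others extended past 2-fold.

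RPN4 was the member with the lowest fold change in Aged RNA, and its Aged replicates differed the most. It had 427 and 202 CPM in Aged cells, against 451 and 598 CPM in Young cells, from 225 and 320 counts in Aged cells and 397 and 1630 counts in Young cells. Both Aged values were below both Young values. The log2 fold change was −0.75 ± 0.40 (SE; adjusted p = 0.247), which did not pass the test. The Aged replicates differed from each other by 1.08 on the log2 scale, the largest such gap of any member in that group, where the median gap was 0.16. Without Aged replicate 2 the log2 fold change was −0.30 and without Aged replicate 1 it was −1.37, so the size depends on which Aged library is kept.

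**Figure D3:**
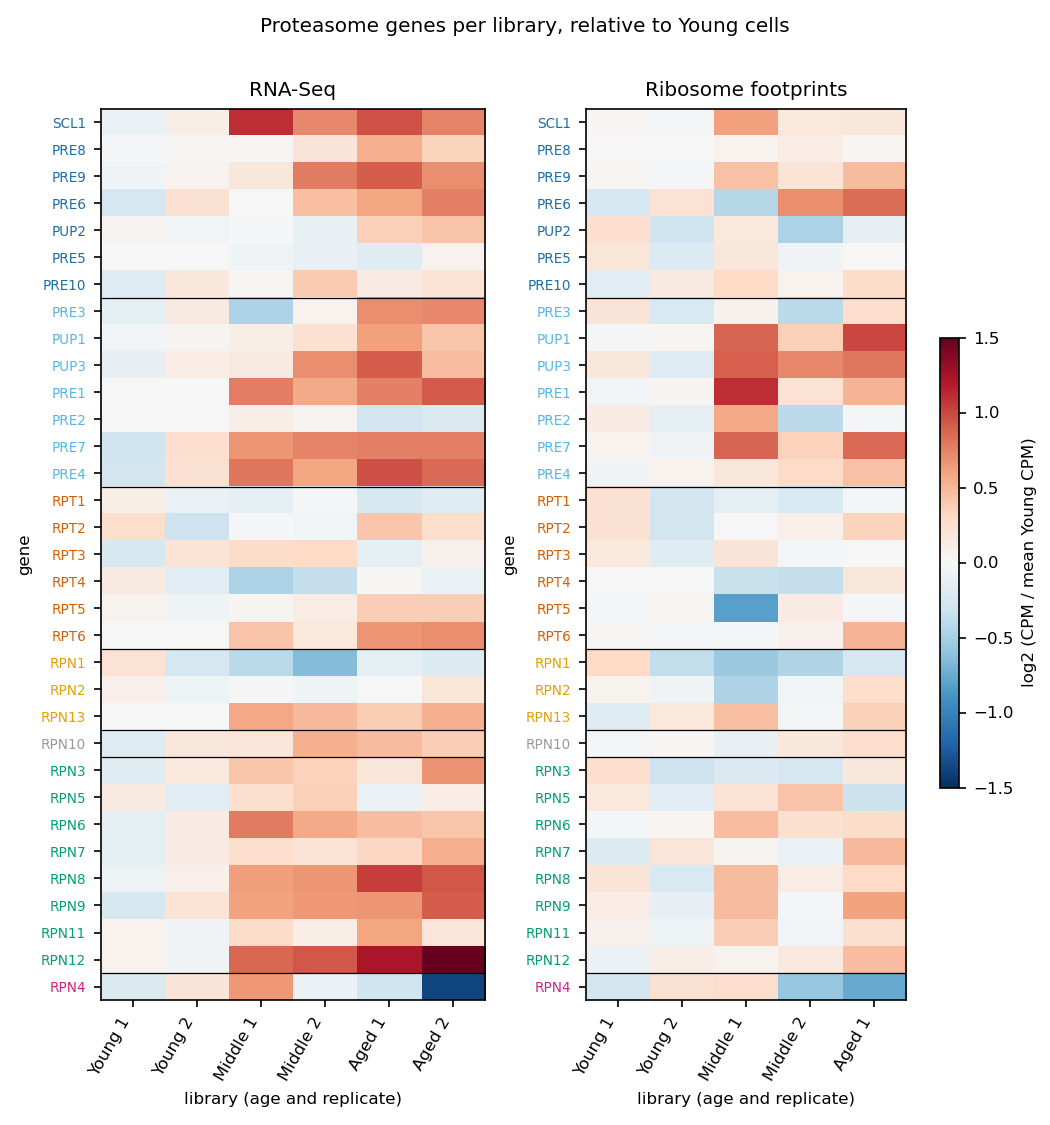
Levels of the 33 members in each RNA-Seq (left) and footprint (right) library, as log2 of CPM over the mean CPM of the Young libraries, with gene names colored and lines drawn by sub-complex in the order alpha ring, beta ring, base ATPases, other base subunits, RPN10, lid and RPN4. Red is higher and blue is lower than the Young mean, and colors saturate at 1.5 in either direction. Most core and lid rows are red in both Aged RNA libraries, and RPN4 is blue there, deepest in Aged replicate 2 (202 CPM).

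For Middle against Young RNA, which asks what is already different in the mothers of a batch culture, no member was called (edgeR's quasi-likelihood test over 5818 genes). Of all genes, 2.11% were called higher and 0.859% lower. With p left unadjusted, 6 members were higher at 0.05 (12.4% of all genes) and 0 were lower (11.3%), and DESeq2 called 0 in either direction. The 6 were SCL1, PRE1, PRE7 and PRE4 of the core and RPN8 and RPN12 of the lid, in a comparison that shares its Young libraries with the one above. Middle libraries lay above both Young libraries for 20 members (28.0% of all genes), with all 8 lid genes among them, and below both for PRE5, RPT4 (YOR259C) and RPN1 (29.6% of all genes). SCL1, an alpha ring subunit, had 293 and 223 CPM in Middle cells, against 127 and 145 CPM in Young cells (log2 fold change 0.91 ± 0.28, adjusted p = 0.0967). RPN12 had 119 and 126 CPM in Middle cells, against its 68.2 and 63.1 CPM in Young cells (0.91 ± 0.29, adjusted p = 0.111). RPN8 had 312 and 319 CPM in Middle cells, against 192 and 213 CPM in Young cells (0.64 ± 0.26, adjusted p = 0.188). The 3 genes did not overlap between the groups. By sub-complex, the median log2 fold change was 0.24 for the core, −0.03 for the base and 0.50 for the lid. Over the 32 subunits it was 0.27, with 16 of the 33 members having intervals within 2-fold in both directions. Of the proteolytic subunits, PRE3 had 95.4 and 136 CPM in Middle cells (−0.15 ± 0.30), PUP1 had 114 and 126 CPM (0.17 ± 0.28) and PRE2 had 250.3 and 242 CPM (0.06 ± 0.26). RPN4 had 825 and 495 CPM in Middle cells, against 451 and 598 CPM in Young cells, and the groups overlapped (0.32 ± 0.36, adjusted p = 0.63).

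For Aged against Middle RNA, which sets mothers against mothers, subunit values lay near those of Middle cells and the largest difference was that of RPN4. No member was called (edgeR's quasi-likelihood test over 5674 genes), while 7.75% of all genes were called in either direction, and DESeq2 also called 0 members. At an unadjusted p under 0.05, PRE3 was higher (13.7% of all genes) and RPN4 was lower (11.5% of all genes). The Aged libraries lay above both Middle libraries for 17 members and below both for PRE2, RPT1, RPT3 (YDR394W), RPN5, RPN6 (YDL097C) and RPN4, each direction against 28.6% of all genes. PRE3 had 213 and 216 CPM in Aged cells, against 95.4 and 136 CPM in Middle cells (log2 fold change 0.86 ± 0.26, adjusted p = 0.0852). PUP2 (YGR253C) of the alpha ring had 256 and 269 CPM in Aged cells, against 195 and 185 CPM in Middle cells (0.47 ± 0.23, adjusted p = 0.235). RPN4 had 427 and 202 CPM in Aged cells, against 825 and 495 CPM in Middle cells (−1.08 ± 0.40, adjusted p = 0.138). Leaving out Aged replicate 1 gave RPN4 a log2 fold change of −1.70, and leaving out Aged replicate 2 gave −0.61. These fits hold 1 Aged library and so no spread between Aged libraries, and only the size is given. The median of the 32 subunits was 0.21, and for 30 of the 33 members the 95% interval lay within 2-fold in both directions. This was the most precise of the comparisons, with a median SE of 0.25, against 0.31 for Aged and 0.29 for Middle against Young RNA.

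**Figure D4:**
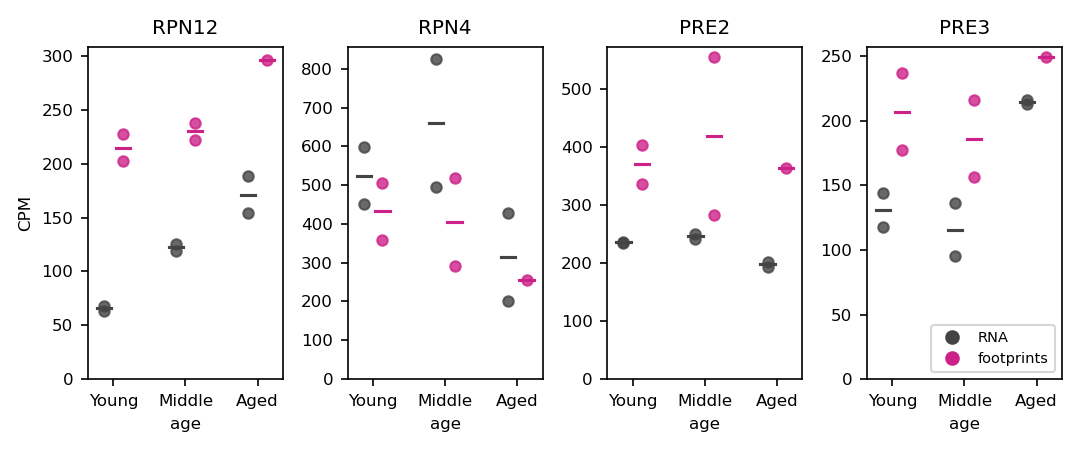
CPM of RPN12, RPN4 and the proteolytic subunits PRE2 and PRE3 in RNA (grey) and footprints (magenta) of Young, Middle and Aged cells. Points are libraries and bars are their means. RPN12 RNA lies at 154 to 188 CPM in Aged and 63.1 to 68.2 CPM in Young cells, while RPN4 RNA spreads from 202 to 427 CPM within Aged cells.

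Footprints report where ribosomes sat, and footprint CPM follow both the amount of a transcript and its translation. In Middle against Young footprints no member was called (edgeR's quasi-likelihood test over 4167 genes), with 2.74% of all genes called higher and 4.15% lower. With p left unadjusted there were also 0 members at 0.05 in either direction (25.4% of all genes), and DESeq2 called 0. Middle libraries lay above both Young libraries for 10 members (28.5% of all genes), of which 8 were core genes, and below both for RPT4 and RPN1 (28.2% of all genes). The 3 members with the smallest p were all of the beta ring. PUP3 had 289.9 and 258 CPM in Middle footprints, against 176 and 136 CPM in Young footprints (log2 fold change 0.79 ± 0.38, adjusted p = 0.229). PRE1 had 370.02 and 201 CPM, against 168 and 177 CPM (0.68 ± 0.42, adjusted p = 0.348). PUP1 had 259 and 181 CPM, against 139 and 145 CPM (0.59 ± 0.39, adjusted p = 0.375). These genes lay higher in each Middle library than in both Young libraries. The median log2 fold change was 0.25 for the core, −0.20 for the base, 0.19 for the lid and 0.11 for the 32 subunits. PRE2 had 555 and 283 CPM in Middle footprints, against 404 and 337 CPM in Young footprints, and PRE3 had 216 and 156 CPM, against 237 and 177 CPM, so that the groups overlapped for both. RPN4 had 518 and 291 CPM in Middle footprints, against 358 and 507 CPM in Young footprints (−0.13 ± 0.43, adjusted p = 0.889). The 95% intervals of 8 of the 33 members lay within 2-fold in both directions, and those of the other 25 passed 2-fold in one direction. The subunit median was −0.012 when genes with under 10 counts in any library were left out, so its sign was not stable.

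Translational efficiency, here the footprint change that the RNA change does not account for, was tested as the interaction of age and assay. Between Middle and Young cells no member was called in either direction, as 0.00% of the 5334 genes were called higher and 0.00% lower (edgeR's quasi-likelihood test). No member had an unadjusted p under 0.05 either, 0 being higher (1.20% of all genes) and 0 lower (1.97%), and DESeq2 called 0. The median log2 change of the 32 subunits was −0.05, beside −0.07 over all genes tested. Ratios of footprints to RNA were taken between same-numbered libraries. RPN12 had the smallest p, with ratios of 1.86 and 1.90 in Middle cells, against 2.97 and 3.60 in Young cells (log2 change −0.76 ± 0.42). RPN3 (YER021W), a lid scaffold, had ratios of 0.90 and 0.92 in Middle cells, against 1.88 and 1.00 in Young cells (−0.57 ± 0.48). PUP1 had 2.26 and 1.44 in Middle cells, against 1.33 and 1.31 in Young cells (0.47 ± 0.43). RPN4 had 0.63 and 0.59 in Middle cells, against 0.79 and 0.85 in Young cells (−0.41 ± 0.57). The adjusted p was 1 for every member, and the intervals of 2 members alone lay within 2-fold in both directions. RNA and footprints came from the same lysates, but this fit did not pair them. With a lysate block, which takes equal numbers as the same lysate, 8 of all genes were called higher and 47 lower. No member was called with that block, and RPN12 had −0.77 (edgeR's quasi-likelihood test, adjusted p = 0.593).

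Aged cells had 1 footprint library, so their footprint values have no replicate check and no test. Set against the Young libraries, 1 member was more than 2-fold higher (16.5% of 4619 genes) and 0 were more than 2-fold lower (18.4%). That member was PUP1, with 284 CPM in Aged footprints, against 139 and 145 CPM in Young footprints (log2 fold change 1.002), and it was no longer past 2-fold with DESeq2's size factors, in the joint fit of the 3 ages, in DESeq2 or without either Young footprint library. The Aged library lay above both Young libraries for 23 members (39.7% of all genes) and below both for RPT5 (YOR117W), RPN5 and RPN4 (38.7% of all genes). PRE7 had 327 CPM in Aged footprints, against 188 and 175 CPM in Young footprints (0.85), and PRE6 (YOL038W) had 253 CPM, against 118 and 165 CPM (0.83). PRE2 had 365 CPM, between its Young values of 404 and 337 CPM, while PRE3 had 249 CPM, above its 237 and 177 CPM. RPN4 had 256 CPM in Aged footprints, against 358 and 507 CPM in Young footprints (−0.76), the lowest of the members. By sub-complex the medians were 0.36 for the core, 0.18 for the base and 0.29 for the lid, with 0.27 over the 32 subunits and −0.02 over all genes. The change of translational efficiency exceeded 2-fold in 0 members in either direction, against 10.1% of 6028 genes higher and 13.0% lower. Its median over the subunits was −0.05. The largest absolute values were −0.82 for RPN12, whose ratio in Aged cells was 1.93 and 1.58 when the footprint library was set against RNA of Aged replicates 1 and 2, against 2.97 and 3.60 in Young cells, and 0.58 and −0.58 for PUP1 and RPN8. PUP1 had ratios of 1.72 and 1.97 in Aged cells, against 1.33 and 1.31 in Young cells, and RPN8 had 1.03 and 1.10 in Aged cells, against 2.06 and 1.39 in Young cells. RPN4 had ratios of 0.60 and 1.27 in Aged cells, against 0.79 and 0.85 in Young cells, so that the groups overlapped. Its log2 change was 0.09 with both Aged RNA libraries, −0.37 without Aged RNA replicate 2 and 0.72 without Aged RNA replicate 1, which leaves its direction undetermined.

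Core and 19S genes differ in length, and length moved with the fold changes of all genes. Core genes had 189 to 279 counted codons (median 244) and 19S genes 147 to 984 (median 422.5). Across the 5897 genes tested in Aged against Young RNA, Spearman's rho between log2 fold change and codons was −0.25, a description over genes of the same libraries. With a smooth curve of fold change against length subtracted, an alternative chosen after seeing the data, the core median was 0.49 and the 19S median 0.36. Their difference was then 0.13, in place of 0.28. The subunit median was then 0.39 and RPN12 had 1.27. In Aged footprints, where rho was −0.29, the same step left the core at 0.13 and the 19S particle at 0.20, so that the order of core and 19S turned round.

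**Figure D5:**
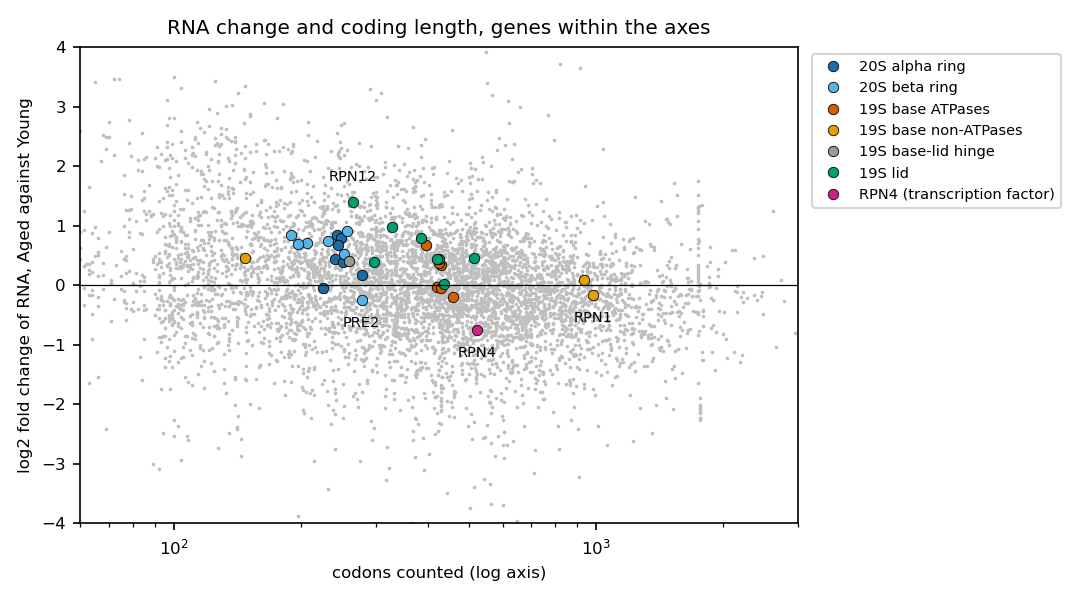
Log2 fold change of RNA, Aged against Young, by counted codons (log axis) for all genes tested within the axes (grey) and the 33 members (colored by sub-complex). Shorter genes lie higher on the whole (Spearman's rho −0.25), core genes sit between 189 and 279 codons, and RPN12 (1.39) and RPN4 (−0.75) are the extremes of the members.

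Fold changes were also set out by the presence of PACE, the element that Rpn4 binds. In Aged against Young RNA, the 27 members with the full element had a median log2 fold change of 0.43, and the 6 without it had 0.44. Among those 6, PRE5, PUP1 and RPN8 held the shorter GTGGCAAA, while RPN13, RPN10 and RPN4, the factor itself, held neither. The 6 are thus not a set without any match. Of the 46 other genes with the element, 43 were tested, with a median of −0.06 and 19 above 0. Of these, 2 were called higher (8.02% of all genes) and 2 lower (4.93%). Some of the 46 are neighbors of members on the opposite strand, such as MPO1 beside SCL1 and ALG13 beside RPT6. Their windows can hold the same copy of the element, so the 46 are not all separate carriers of it. In Middle against Young RNA the median was 0.25 for the members with the full element and 0.35 for the 6 without it. The other genes with the element had a median of −0.07.

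Genes around the proteasome were described from lists of their own. Of 16 assembly and accessory genes, 15 were tested in Aged against Young RNA and 0 were called (3 were higher at an unadjusted p under 0.05, and the list median was 0.16). In that comparison the smallest p of edgeR's quasi-likelihood test were those of NAS6 (YGR232W) and UMP1 (YBR173C). NAS6, a chaperone of base assembly, had a log2 fold change of 1.07 ± 0.34 (adjusted p = 0.0617). UMP1, the core maturation factor, had 1.22 ± 0.42 (adjusted p = 0.0788). In the Aged footprint library, which has no test, fitted log2 fold changes against Young footprints ran from −0.92 (SEM1 of the lid) to 1.80 (TMA17). Of the 14 genes of this list with a value there, 7 were above 0 and 7 below. NAS6 (0.97 ± 0.31) and NAS2 (0.88 ± 0.33), another base chaperone, led the list in Middle against Young RNA with none called. In Aged against Middle RNA the smallest p were those of ECM29 (0.73 ± 0.26), which tethers core to 19S particle, and HUL5 (−0.59 ± 0.26), a ubiquitin ligase bound to the proteasome, again with none called. Of 17 genes of ubiquitin supply and delivery, 4 were called higher and 0 lower in Aged against Young RNA, where 8.02% of all genes were called higher and 4.93% lower, with a list median of 0.32. RPL40A (2.24 ± 0.34, adjusted p = 0.00309), RPL40B (1.74 ± 0.44, adjusted p = 0.0247) and RPS31 (1.74 ± 0.48, adjusted p = 0.0362) encode ubiquitin fused to ribosomal proteins, and RPL40A and RPL40B are near-identical copies whose reads may have been split between them. Of the 129 other RPL and RPS genes tested, a set chosen after the values were seen, 110 were called higher in Aged against Young RNA and 0 lower (median log2 fold change 2.19). UBC5 (2.40 ± 0.50, adjusted p = 0.0117) encodes a stress-related ubiquitin-conjugating enzyme. The 3 fusion genes were also called higher in Aged against Middle RNA (RPL40A 2.63 ± 0.36, RPL40B 2.45 ± 0.37, RPS31 1.95 ± 0.32). None of the list was called in Middle against Young RNA, where UBC5 (2.06 ± 0.49, adjusted p = 0.0559) and DSK2 (0.68 ± 0.27), a shuttle for ubiquitinated substrates, had the smallest p. In Middle footprints 1 gene was called, UBC5, at 2.89. Of 7 regulators of RPN4, 0 were called in any RNA comparison. RAD6 (−0.74 ± 0.38) and HSF1 (−0.41 ± 0.29) had the smallest p in Aged against Young RNA, Rad6 being the enzyme that with Ubr2 marks Rpn4 for degradation and Hsf1 an activator of RPN4. UBR2 had −0.84 ± 0.31 in Middle against Young and 0.83 ± 0.28 in Aged against Middle RNA, while PDR3, another activator of RPN4, had 0.79 ± 0.32 and −0.86 ± 0.31.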

How the data were processed

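The deposited tables hold counts per coding sequence that the authors made with Fastp for trimming and STAR 2.7.0a for alignment to S288C (R64), after reads of non-coding RNA had been discarded. RNA-Seq reads were placed by an offset of 15 and reads on the first and last 5 codons were left out. Another deposited column, made by the authors, holds the coding length in codons without those ends. The annotation, the use of strand and reads with several positions are not given in the sources used here. No gene annotated in RefSeq overlapped a member.

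Tests used edgeR 4.0.16 under R 4.3.3, with TMM scaling, filterByExpr and a two-sided quasi-likelihood test, and p-values were adjusted over all genes tested (Benjamini-Hochberg, threshold 0.05), separately for each pair of ages, with DESeq2 1.42.0 as an alternative. All 33 members passed the filter. Translational efficiency was the age-by-assay interaction. CPM were scaled by TMM within an assay, density was CPM per 1000 codons, and a ratio of footprints to RNA was taken between same-numbered libraries of an age. The Aged footprint library has no replicate number in its title, so it was set against each Aged RNA-Seq library and entered no block. With 1 library, Aged footprint values are fitted fold changes only. The floor of 3 counts equals 1.10 CPM in the deepest and 18.5 CPM in the shallowest of the libraries (168247 to 2585717 counts). Tests were checked on simulated data with planted changes larger than any fitted for a member, so the power at the sizes reported here was not measured.

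Values per library are given for RPN4, PRE3, PUP1 and PRE2, for the 3 members with the smallest p (or, without a test, the largest change) in each comparison, and for the highest and lowest density. From the other lists, the 2 with the lowest p of every RNA comparison and all calls of up to 5 are named. The members were taken by ORF identifier and not by measured values. Earlier results of these data were known when the members and lists were chosen. Alternatives were DESeq2's size factors, library totals, no filter, at least 10 counts in every library, all 3 ages in one fit, DESeq2, blocks by replicate or by lysate, and leaving out each library. Subtracting a length curve was added after seeing the data.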

Additional observations from a re-analysis of the deposited data

How the results depend on the processing

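Depth limits these values, as the median SE of a member was 0.31 on the log2 scale in Aged and 0.29 in Middle against Young RNA, 0.39 in Middle footprints and 0.46 in translational efficiency. Aged against Young RNA had 1 member called higher, and 2 in the joint fit of the 3 ages (RPN8, RPN12), 3 with the replicate block (PRE4, RPN8, RPN12) and 0 to 1 with a library left out. With the replicate block, edgeR's quasi-likelihood test of Aged against Middle RNA had 1 member higher (PRE3, adjusted p = 0.00543) and 1 lower (RPN4, adjusted p = 0.000151). Fits with a library left out hold 1 library in a group, so a call gained or lost there is not read as a result.

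Young and Middle cells are described as fractions of a beading reaction and Aged cells as later mothers of such a fraction. No source used here says that equal numbers mark the same reaction, and with 2 numbers the replicate block is given here alone. No block could be fitted for Aged footprints or their translational efficiency, whose library has no number. Deviations of same-numbered libraries correlated at 0.205 (Middle and Young RNA), 0.0413 (Aged and Young RNA), 0.322 (Aged and Middle RNA) and 0.163 (Middle and Young footprints) across 5663 genes. Between footprints and RNA of the same age they correlated at 0.255 (Middle) and 0.423 (Young).

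The subunit median of Aged against Young RNA was 0.43 to 0.57 with a library left out, and the core minus 19S median 0.18 to 0.42, or 0.13 with the length curve. For Middle against Young RNA the subunit median was 0.16 with at least 10 counts in every library and 0.16 to 0.40 with a library left out, and core minus 19S was −0.18 to 0.17. For Aged against Middle RNA the subunit median was 0.29 with library totals, 0.27 with at least 10 counts and 0.18 to 0.21 with a library left out. For Middle footprints it was 0.28 with library totals, which moved the median of all genes to 0.18, and −0.012 with at least 10 counts, which turned its sign, while core minus 19S was 0.20 to 0.35 with a library left out. The subunit median of translational efficiency in Middle cells was −0.29 to −0.047 with a library left out.

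For Aged footprints, 0 members were more than 2-fold higher with DESeq2's size factors, the joint fit and DESeq2. With a library left out the count was 0 to 1, the 1 being PRE6 (log2 fold change 1.008) without Young footprint replicate 2. Their subunit median was 0.32 with library totals, 0.32 with at least 10 counts, 0.17 with the length curve and 0.11 to 0.30 with a library left out. Core minus 19S was 0.15 to 0.27 with a library left out and −0.070 with the length curve. Library totals moved the median of all genes in Aged translational efficiency to −0.15. The spread of density averaged 0.49 as an SD in RNA and 0.41 in footprints, and 0.59 and 0.56 as an interquartile range.

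With a library left out, 6 of the 33 members took the other sign in at least 1 fit of Aged against Young RNA, 6 of Middle against Young RNA, 7 of Aged against Middle RNA, 17 of Middle footprints, 17 of translational efficiency in Middle cells, 9 of Aged footprints and 16 of translational efficiency in Aged cells. Where a test was made, those that turned and moved by more than 1 SE are given next, none of them called. In Middle against Young RNA, RPN4 had −0.041 to 0.64 and RPT2 −0.30 to 0.29 with a library left out, RPN4 turning without Middle replicate 1 and RPT2 without Young replicate 1. In Middle footprints, PRE2 reached −0.39 without Middle replicate 1, and PRE6 ran between −0.43 without Middle replicate 2 and 0.69 without Middle replicate 1. In translational efficiency, PRE1 had −0.47 and PRE2 −0.48 without footprints of Middle replicate 1, and PRE6 −0.72 without those of Middle replicate 2. The causes were not tested.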
